A study of Mus musculus with 8 samples.

Results

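The S100 genes outside the calprotectin pair were examined in the splenic tumors that FL5.12 cells formed in mice and in the cells before injection. S100 proteins are small calcium-binding proteins with paired EF-hand motifs that work as dimers. On binding calcium most of them expose a surface that docks a target, such as an annexin, a myosin or a membrane channel. Several are abundant in white blood cells and in migrating cells, and most of the genes stand side by side in one cluster of the mouse genome. The members were S100a4, S100a6, S100a10, S100a11, S100a1 and S100a13, set against 12393 genes in all that have a probe set of their own on the array. The 6 genes were measured by 8 of the 22690 probe sets of the array. The set was chosen by the low S100a4 signal in some of these tumors, with its family members set beside it. The levels of the members in tumors and parental cells are therefore a description. The fits over all genes include them, and their calls there are given as counts from which nothing is read.

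RNA came from splenic tumors 1, 2 and 3, each grown in a separate nude mouse after FL5.12 cells had been injected into a vein, and from the injected parental cells. FL5.12 cells are mouse pro-B cells that need interleukin-3 to live. All 4 sources carried the stably transfected Bfl-1DC and p53DD constructs, so no source without them was available for comparison. Each source was measured on 2 Affymetrix Mouse Genome 430A 2.0 arrays, which gave 8 arrays. The cells were grown with interleukin-3 from the supernatant of WEHI-3B cells, a text the labels carry for tumors too, and whether tumor cells were cultured is not clear from it. The labels give neither the age of the mice nor whether the transfected line was 1 clone, and nothing in them says that the 2 parental arrays came from separate cultures. Nude mice lack a thymus but keep their myeloid, NK and B cells, and the tumor samples may hold host cells.

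The 2 arrays of a source correlated at 0.951 to 0.972 across genes, which are not independent replicates. The number of arrays limits the precision. The 40th percentile of signal, used below as the line above which a signal was taken as measured, lay between 15.6 and 20.7. Of 12 pro-B cell markers on the array, Cd79a and Cd79b were above it on all 8 arrays. Cd79a was at 128 to 277 in tumors, against 87.7 and 95.2 in parental cells, and Cd79b at 209 to 298, against 109 and 77.6. The 12 markers summed to 472 to 643 in tumors, against 243 and 251 in parental cells. The defining pro-B genes Pax5 (2.91 to 18.9), Ebf1 (0.509 to 6.84) and Rag1 (0.215 to 9.92) were at or near the floor in tumors and in parental cells alike. In a sample of mixed cells, fewer cells of a type and less RNA per cell cannot be told apart.

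The start regions of the members are shown first because the results turn on some of them. S100a4 and S100a6 lie close together and were low in the same tumors. The S100a11 probe set was above the parental array of the same number in all 3 tumors, though tumor 2 overlapped the parental range. RefSeq's table of 300-base windows in the assembly GRCm38.p6, from 250 bases before to 50 after each start, matched 5 members by symbol. The S100a1 and S100a13 windows lie head to head on opposite strands and share 204 bases, so only that of S100a13 is printed. Capitals mark matches, on either strand and none overlapping another, to TATAAA (the core of the TATA box), CACGTG (an E-box), TGACTCA (the AP-1 site), GGGCGG (known as the GC box) and the CCAAT box, named by its letters. The windows are chr3:90603520-90603819 (+) for S100a4, chr3:90612644-90612943 (+) for S100a6, chr3:93520246-93520545 (+) for S100a11 and chr3:90514185-90514484 (+) for S100a13.
S100a4: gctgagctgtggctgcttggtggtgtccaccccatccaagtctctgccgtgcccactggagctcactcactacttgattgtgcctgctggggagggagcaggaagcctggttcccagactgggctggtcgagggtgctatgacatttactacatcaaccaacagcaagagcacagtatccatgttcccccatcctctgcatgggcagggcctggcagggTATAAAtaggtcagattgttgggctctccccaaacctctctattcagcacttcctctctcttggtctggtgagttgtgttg
S100a6: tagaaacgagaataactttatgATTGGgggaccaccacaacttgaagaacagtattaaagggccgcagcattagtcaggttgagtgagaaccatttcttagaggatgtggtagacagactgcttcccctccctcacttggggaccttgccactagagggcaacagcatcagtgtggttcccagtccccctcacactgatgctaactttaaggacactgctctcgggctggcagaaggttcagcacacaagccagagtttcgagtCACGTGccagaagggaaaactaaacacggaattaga
S100a11: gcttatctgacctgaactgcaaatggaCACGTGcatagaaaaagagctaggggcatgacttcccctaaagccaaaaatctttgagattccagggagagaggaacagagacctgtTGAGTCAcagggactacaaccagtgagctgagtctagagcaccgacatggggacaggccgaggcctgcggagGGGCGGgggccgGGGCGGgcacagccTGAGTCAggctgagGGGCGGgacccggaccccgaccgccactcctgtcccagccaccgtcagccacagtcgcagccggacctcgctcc
S100a13: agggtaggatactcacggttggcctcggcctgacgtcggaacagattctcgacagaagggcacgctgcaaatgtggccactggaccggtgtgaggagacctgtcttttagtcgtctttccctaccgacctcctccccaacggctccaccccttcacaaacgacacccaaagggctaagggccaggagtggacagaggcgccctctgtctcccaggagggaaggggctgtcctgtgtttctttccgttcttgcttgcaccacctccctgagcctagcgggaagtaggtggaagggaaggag

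The S100a4 window held 1 TATA box, which 13.6% of the 32851 windows in the table hold. The S100a6 window held 1 E-box and 1 CCAAT box, which 7.15% and 37.4% of windows hold. In the S100a11 window there were 2 AP-1 sites, 3 GC boxes and 1 E-box. At least 1 AP-1 site was found in 5.2% of windows and at least 1 GC box in 35.7%. The S100a13 and S100a1 windows held none of these letters. The number of CG pairs was 2 for S100a4 and 6 for S100a6, against 15 for S100a11, 14 for S100a13 and 11 for S100a1, with a median of 7 over all windows. S100a4 and S100a6 thus shared none of the 5 motifs in these windows. A match is a string of letters and not a shown binding site.

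S100a4 encodes a protein that binds non-muscle myosin and is known from migrating cells, fibroblasts and white blood cells. Its signal was 7.69 and 51.4 in tumor 1, with 43.3 and 145 in tumor 2 and with 1252 and 2647 in tumor 3, against 1587 and 3015 in parental cells. All 4 arrays of tumors 1 and 2 lay far below both parental arrays, while the arrays of tumor 3 overlapped them. In parental cells the probe set stood at percentiles 97.5 and 99.0 of its array, and in tumor 1 at percentiles 27.2 and 55.2. In the order of levels, tumor 1 came lowest, then tumor 2, tumor 3 and parental cells. Tumors 1 and 2 overlapped in signal, as did tumor 3 and parental cells, and the gap lay between tumor 2 and tumor 3.

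Changes were taken on the scale of log2(signal + 16), which understates those of low signals. S100a4 differed from parental cells by -5.79 ± 0.66 (SE from the spread between duplicate arrays) in tumor 1, by -4.50 ± 0.66 in tumor 2 and by -0.26 ± 0.66 in tumor 3. Arrays that carry the same number deviated together, so each tumor was also set against the parental array of its own number. On the first arrays the S100a4 change was -6.08, -4.76 and -0.34 in tumors 1, 2 and 3, and on the second arrays -5.49, -4.24 and -0.19. The parental signal was 36.7 times that of tumor 2 on the first arrays and 20.8 times on the second, and 58.7 times that of tumor 1 on the second. The first array of tumor 1 was below the 40th percentile, so no ratio is given for it. Over the 3 tumors S100a4 averaged 691 ± 1091 (SD, n = 3 tumors) and in parental cells 2301 ± 1010 (SD, n = 2 arrays), a mean change of -3.51 that was made by tumors 1 and 2.

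**Figure D1:**
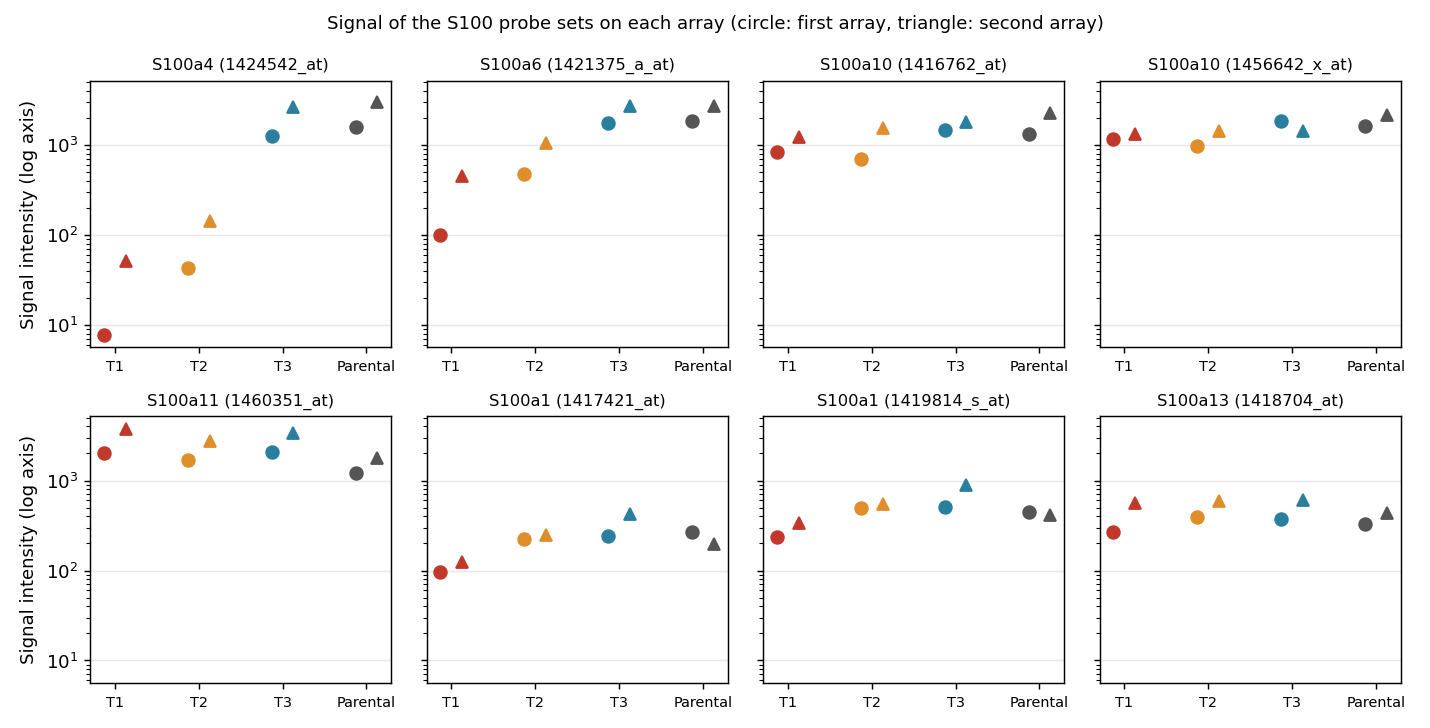
Signal intensity (log axis) of each of the 8 probe sets on every array, with tumors 1, 2 and 3 (T1, T2, T3) to the left of parental cells. Circles are first arrays and triangles second arrays. S100a4 and S100a6 are low in tumors 1 and 2 only, with S100a4 between 7.69 and 145 there, and S100a11 lies higher in each tumor than on the parental array of the same number.

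S100a6, known as calcyclin, binds the adaptor CACYBP and several annexins. Its only probe set gave 101 and 454 in tumor 1, with 472 and 1062 in tumor 2 and with 1765 and 2716 in tumor 3, against 1853 and 2700.4 in parental cells. The arrays of tumors 1 and 2 lay below both parental arrays and those of tumor 3 overlapped them, the same order of sources as for S100a4. Tumors 1 and 2 did not overlap, though the gap between them (454 against 472) was small beside the spread of their duplicate arrays. The change was -3.26 ± 0.64 (SE) in tumor 1, -1.64 ± 0.64 in tumor 2 and -0.03 ± 0.64 in tumor 3. On the first arrays the parental signal was 18.4 times that of tumor 1 and 3.93 times that of tumor 2, and on the second arrays 5.95 and 2.54 times. In tumor 3 the change was -0.07 within the first arrays and 0.01 within the second. S100a6 averaged 1095 ± 1022 (SD, n = 3) in tumors and 2277 ± 599 (SD, n = 2) in parental cells.

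S100a10, also called p11, is the family member that needs no calcium, and it joins 2 annexin A2 molecules into a complex at the plasma membrane. On its _at probe set the signal was 838 and 1238 in tumor 1, with 702 and 1563 in tumor 2 and with 1486 and 1816 in tumor 3, against 1331 and 2262 in parental cells. The other, an _x_at set, of a type that can also bind related transcripts, gave 1180.3 and 1320.5, 977 and 1427, and 1842 and 1446 in tumors 1, 2 and 3, against 1639.5 and 2153 in parental cells. On the second set the arrays of tumors 1 and 2 were below both parental arrays, on the first set tumor 2 overlapped parental cells, and tumor 3 overlapped them on both. The changes were -0.76, -0.72 and -0.08 in tumors 1, 2 and 3 on the first set (SE 0.41) and -0.58, -0.66 and -0.20 on the second (SE 0.25). Tumor 3 was nearest to parental cells on both sets, as for S100a4, while the order of tumors 1 and 2 differed between the sets, and every change was under 1 log2 unit.

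S100a11 encodes calgizzarin, which binds annexin A1. Its only probe set also names the pseudogene S100a11-ps and Gm12854, and these cannot be told apart here. The signal was 2003 and 3780 in tumor 1, with 1674 and 2726 in tumor 2 and with 2052 and 3358 in tumor 3, against 1225 and 1799.7 in parental cells. Each tumor array was above the parental array of its number, and tumor 2 alone had an array (1674) inside the parental range. The changes were 0.88, 0.52 and 0.82 in tumors 1, 2 and 3 (SE 0.40), and 0.70, 0.45 and 0.74 within the first arrays and 1.06, 0.59 and 0.89 within the second. The mean was 2599 ± 358 (SD, n = 3) in tumors and 1512 ± 406 (SD, n = 2) in parental cells, and the signal ranges of the 3 tumors overlapped in S100a11, where those of S100a4 did not overlap between tumor 3 and the other two.

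S100a1, a regulator of calcium handling best known from muscle, has 2 probe sets. On the _s_at set it gave 234 and 341 in tumor 1, with 495 and 543 in tumor 2 and with 509 and 885 in tumor 3, against 447 and 409 in parental cells. Tumor 1 was below and tumors 2 and 3 above both parental arrays, with changes of -0.57, 0.27 and 0.63 (SE 0.29). The other, an _at set, gave 96.6 and 124.5 in tumor 1, with 225 and 248 in tumor 2 and with 242 and 428 in tumor 3, against 266 and 198 in parental cells, with changes of -0.96, 0.04 and 0.46 (SE 0.29). Both sets had tumor 1 lowest, and on the second set tumors 2 and 3 overlapped parental cells. The mean change over the 3 tumors was 0.11 on one set and -0.15 on the other, so it has no settled sign.

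S100a13, which takes part in the export of fibroblast growth factor 1 from cells, had the narrowest range of changes over the 3 tumors among the members. Its signal was 269 and 566 in tumor 1, with 393 and 585 in tumor 2 and with 373 and 604 in tumor 3, against 330.2 and 434 in parental cells. Every tumor overlapped the parental arrays, and the changes were 0.05, 0.33 and 0.32 (SE 0.39). S100a1 and S100a13, whose start windows overlap, both had their lowest change in tumor 1, though the 3 changes of S100a13 differed by less than their SE. The profiles of the 2 genes correlated at r = 0.623 over the 8 arrays of 4 sources, a description with no test. Each was more like another member, S100a13 like S100a11 (0.766) and S100a1 like S100a6 (0.749).

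**Figure D2:**
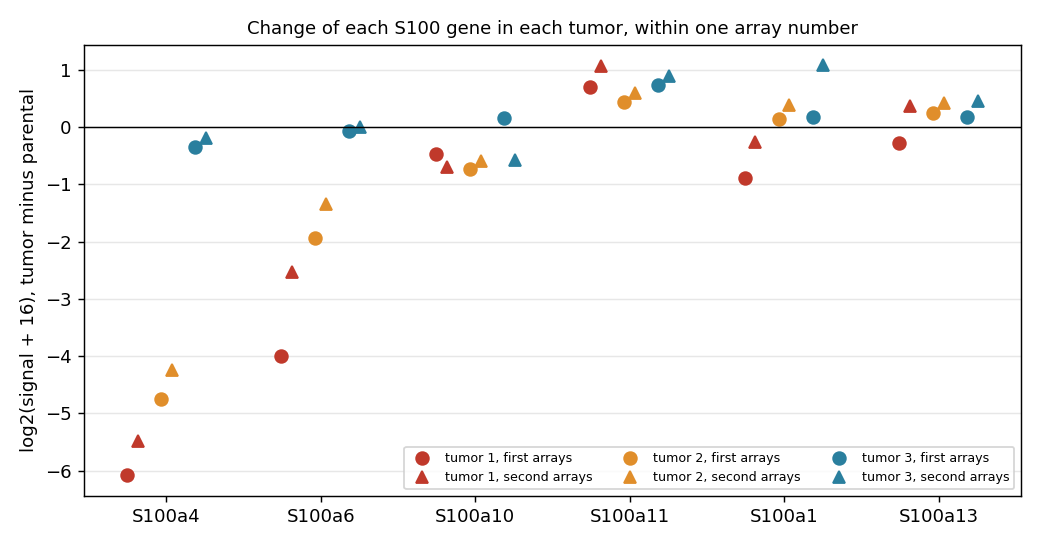
Change of each gene in each tumor against the parental array of the same number, on the scale of log2(signal + 16), for the probe set with the highest mean of each gene. S100a4 and S100a6 in tumors 1 and 2 lie between -6.08 and -1.33, and all other points lie between -0.89 and 1.08.

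In limma's fit of 3 tumor means against 2 parental arrays, 0 of the 5 members that entered as single-gene probe sets had an adjusted p under 0.05, where 66 of 8535 genes (0.773%) did. S100a11 was outside that fit because its probe set names several genes. In tumor 1 alone, S100a4 and S100a6 passed, beside 3.68% of genes, in tumor 2 S100a4 passed, beside 1.53%, and in tumor 3 none of the 5 passed, beside 2.55%. With the array number as a block, S100a6 passed in tumor 2 as well, and tumor 3 again held none. The shares of all genes that passed were then 15.1%, 6.22% and 10.6% in tumors 1, 2 and 3. In the F test among tumors S100a4 was the member that passed, beside 1.62% of genes. Nothing can be read from these counts, since the low S100a4 signal in these tumors chose the members. All 8 probe sets were kept by the filter on low signal, 7 of them with all 8 arrays above the 40th percentile and S100a4 with 7.

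A difference that played no part in choosing the members was that between the second and the first array of each source. S100a4 was higher on the second array in 4 of 4 sources, by 1.51, 1.44 and 1.07 in tumors 1, 2 and 3 and by 0.92 in parental cells. The mean of 1.23 ± 0.13 (SE) passed limma's test over all genes with source as a term (adjusted p = 0.00943). S100a6 (1.08 ± 0.24, adjusted p = 0.0283) and S100a13 (0.66 ± 0.13, adjusted p = 0.0212) were higher in 4 of 4 sources too. Of the 5 members in this limma fit, 3 were thus higher on the second arrays, where 7.86% of all genes were. In the limma fit of every probe set, where 7.63% of sets were higher on the second arrays, S100a11 (0.72 ± 0.10, adjusted p = 0.0108) and the S100a10 _at set (0.68 ± 0.15, adjusted p = 0.0258) passed as well. The other S100a10 set, at 0.19 ± 0.16, and both S100a1 sets, at 0.21 ± 0.18 and 0.33 ± 0.16, did not pass, with adjusted p of 0.43, 0.454 and 0.189. Without tumor 2 limma called 0 genes (2193 had an unadjusted p under 0.05), against 1342 with all sources, and S100a4 then had a difference of 1.17 with an adjusted p of 0.0554. The S100a6 call was lost without any 1 of the 3 tumors (adjusted p 0.0524 to 0.0955), and so was that of S100a13 (0.0585 to 0.0758).

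The labels do not say what the array number stands for. Sums of markers of other cells also differed by number. The summed signal of the 14 macrophage and monocyte markers was 3259, 2094 and 2858 on the second arrays of tumors 1, 2 and 3, against 824, 894 and 1470.0 on the first, and 907 against 195 in parental cells. On the second arrays 12, 11 and 13 of the 14 were higher in tumors 1, 2 and 3, and 8 in parental cells, where Csf1r (555 against 11.5) and Adgre1 (237 against 97.0) made most of the difference and Lyz2 was at 16.6 against 18.5. The 11 neutrophil markers summed to 9744, 5741 and 8510 on the second arrays of the tumors, against 4135, 4935 and 4672 on the first, while in parental cells the sums were 319.5 and 825. Only 7, 7 and 9 of the 11 were higher on the second arrays of tumors 1, 2 and 3. In tumor 2 Ngp was at 1068 against 94.0, while Mpo (2669 against 2727) and Prtn3 (1600 against 1936) were lower. Their part in the S100 differences was not tested.

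**Figure D3:**
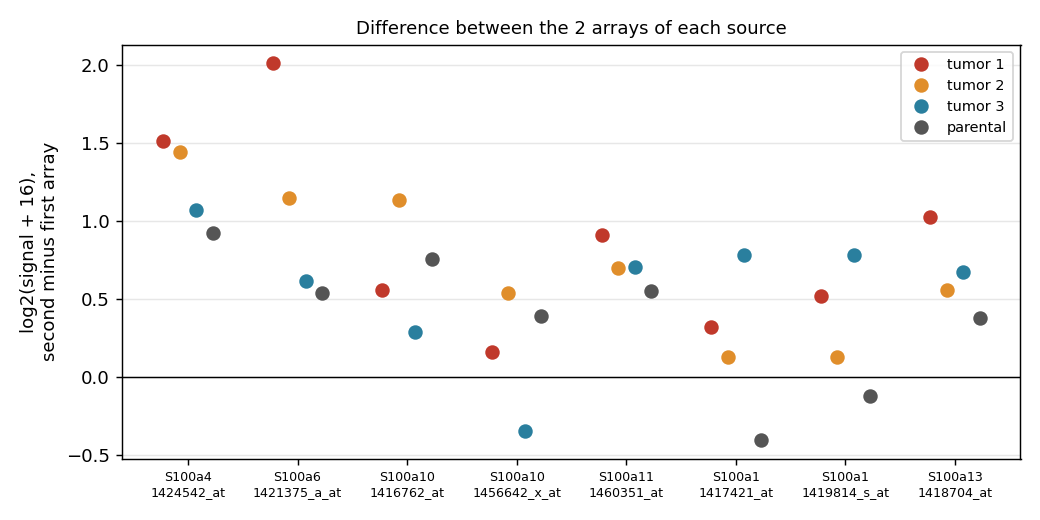
Difference between the second and the first array of each source on the scale of log2(signal + 16), for each probe set, with the tumors to the left of parental cells. The 4 points of S100a4, S100a6, S100a11, S100a13 and the S100a10 _at set all lie above 0, and those of S100a4 lie between 0.92 and 1.51.

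Markers of other cell types were then set beside the low S100a4 of tumors 1 and 2. The neutrophil markers summed to 4135 to 9744 in tumors 1 and 2 and 4672 to 8510 in tumor 3, against 319.5 to 825 in parental cells, and the 6 eosinophil markers summed to 3642 to 6199 in tumors 1 and 2 and 7013 to 8221 in tumor 3, against 38.1 to 44.1 in parental cells. Prtn3 (724.5) made most of the parental neutrophil sum of 825. Mpo, Prtn3 and Ngp led the neutrophil sum in the tumors, while Camp (0.792 to 2.80) was at the floor on every array. Mmp8 (4.58 to 20.8) and Csf3r (3.78 to 29.5) were near the floor. Ctsg was above both parental arrays in tumor 1 (356 and 224) and below both in tumor 3 (28.2 and 26.7, against 28.5 and 72.4). The eosinophil sum was nearly all Epx and Prg2, and the receptor genes Ccr3 (0.506 to 9.25) and Il5ra (0.786 to 5.84) were at the floor on every array. The 14 macrophage and monocyte markers summed to 824 to 3259 in tumors 1 and 2 and 1470.0 to 2858 in tumor 3, against 195 to 907 in parental cells. Ccr2 led this sum in tumors 2 and 3, and C1qa (0.631 to 3.09) and Marco (0.801 to 2.04) were at the floor on every array. The 10 T cell markers, led by Cd3g and Cd3d, summed to 884 to 2022 in tumors 1 and 2 and 2106 to 2617 in tumor 3, against 113 to 177 in parental cells, while Cd3e (3.40 to 12.2) and Cd4 (0.72 to 12.2) were near the floor. The neutrophil, eosinophil and T cell sums were higher on every array of the 3 tumors than on both parental arrays. The 7 NK cell markers summed to 133 to 267 in tumors 1 and 2 and 793 to 2172 in tumor 3, against 659.8 to 3849 in parental cells. Tumors 1 and 2 were low in this sum as in S100a4, though on the first arrays tumor 2 was below tumor 1 and tumor 3 above parental cells. Gzmb led the sum in tumor 3, in parental cells and on the second array of tumor 2, and Nkg7 on the other 3 arrays. Nkg7 was at 61.7 to 94.0 in tumors and at 16.1 to 43.7 in parental cells, higher in every tumor, and the defining NK gene Ncr1 was at 4.24 to 16.7 on all arrays. The 12 stroma markers, of cells in which S100a4 is known as a marker, summed to 143 to 366 in tumors 1 and 2 and 333 to 429 in tumor 3, against 168 to 215 in parental cells. From 1 to 3 of them were above the 40th percentile on each array, and the fibroblast collagen gene Col3a1 was at 2.13 to 12.7 throughout. The 8 erythroid markers summed to 677 to 976 in tumor 1, 1307 to 2090 in tumor 2 and 1632 to 1748 in tumor 3, against 1642 to 2786 in parental cells, lowest in tumor 1. Tfrc, Klf1 and Hemgn led this sum. Hba-a1 (2.33 to 14.1) and Alas2 (0.736 to 2.25) were at the floor on every array, and Hbb-b2 was at 2.33 to 44.9. The part of other cell types in the S100a4 levels was not tested.

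On chromosome 3, in the order of protein-coding genes in RefSeq's table, S100a1, S100a13, S100a14, S100a16, S100a3, S100a2, S100a4, S100a5, S100a6, S100a7a, S100a8 and S100a9 follow each other without a gene of another family between them. S100a11 and S100a10 lie side by side further along, with 54 genes between them and S100a7l2, the last S100 gene of the main cluster. S100a5, a calcium-binding gene known from olfactory neurons, lies between S100a4 and S100a6. Its signal was 18.2 and 28.5 in tumor 1, with 14.5 and 23.7 in tumor 2 and with 22.4 and 34.6 in tumor 3, against 35.5 and 25.0 in parental cells. This is near the 40th percentile, and its changes of -0.24, -0.40 and -0.06 did not pass limma's test (adjusted p of 0.655, 0.557 and 0.94). S100a3, on the other side of S100a4, was at 0.546 to 15.1 and never above the 40th percentile. S100a8 and S100a9, the calprotectin pair on the far side of S100a6, had changes of 2.16, 0.29 and 1.12 and of 3.08, 0.79 and 2.03 in tumors 1, 2 and 3, none of which passed (limma adjusted p from 0.185 to 0.933). S100a9 was at 31.9 and 608 in tumor 1, at 1.82 and 54.0 in tumor 2 and at 27.8 and 144 in tumor 3, against 2.68 and 6.48 in parental cells, and was higher on the second arrays (1.95, limma adjusted p = 0.0344). Within the first arrays its changes were 1.36, -0.07 and 1.23, and those of S100a8 were 0.85, -0.12 and 0.69, in tumors 1, 2 and 3. With the array number as a block both passed in tumor 1 (limma adjusted p of 0.0358 and 0.0251).

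Genes within 10 protein-coding positions of a member on either side numbered 45, of which 16 were measured. By limma 0 of the 16 passed in tumors against parental cells and 0 in any tumor alone without the block, with 4 at an unadjusted p under 0.05 in the first case and 3, 1 and 1 in tumors 1, 2 and 3. Over all genes these shares were 16.4% in the first case and 19.8%, 13.5% and 16.2% in tumors 1, 2 and 3. Their median change was 0.03, beside 0.02 over all genes and -0.02 over the 426 measured genes of chromosome 3. Chtop, an RNA-binding gene next to S100a1, had changes of -0.29, 0.12 and -0.19, and Ilf2, an interleukin-enhancer-binding factor gene, -0.34, 0.07 and -0.02. The largest change among neighbours outside the S100 family was that of Them4, a thioesterase gene, at 0.97 (adjusted p = 0.124). No measured neighbour fell as far as S100a4 and S100a6 did in tumors 1 and 2, but most could not have. In parental cells S100a5 (35.5 and 25.0), S100a16 (15.4 and 26.1), S100a8 (5.07 and 6.33) and S100a9 (2.68 and 6.48) were already low. So were Npr1 (1.63 and 10.7), Rptn (9.31 and 17.1) and Them4 (6.95 and 19.2). For these genes a fall of that size could not have been seen. Crtc2 (42.9 and 36.6), Lor (103 and 54.4), Slc39a1 (88.7 and 133), Dennd4b (134 and 107) and Ints3 (130 and 108.5) were higher in parental cells. On this scale they were still too low to show a fall as large as either gene had in tumor 1. Among the measured neighbours only Chtop (1347 and 1214) had room for the S100a4 fall of tumor 1.

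**Figure D4:**
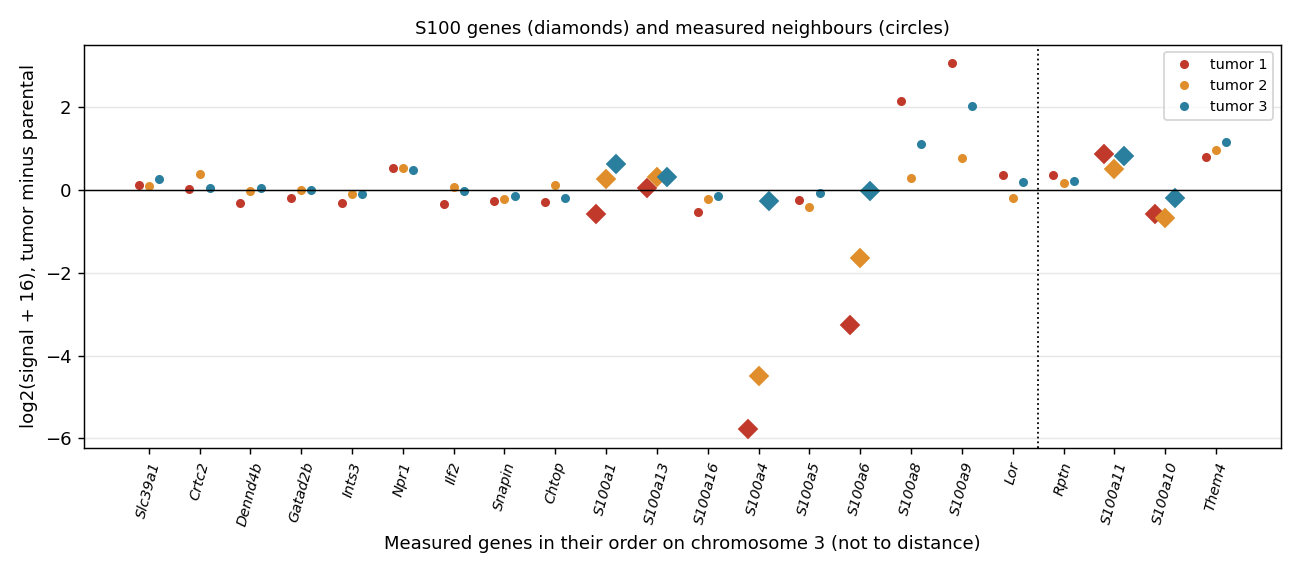
Change of each measured gene around the members in each tumor, on the scale of log2(signal + 16), in gene order on chromosome 3 and not to distance. Diamonds are the 6 members, circles their neighbours, and the dotted line marks the gap between the main cluster and the S100a11 and S100a10 pair. S100a4 and S100a6 reach -5.79 and -3.26 in tumor 1, while the neighbours other than S100a8 and S100a9 lie between -0.52 and 1.16.

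The genes whose profile over the 8 arrays was most like that of S100a4 were taken by Pearson's r on log2(signal + 16). The 8 arrays are 4 pairs from 4 sources and are not independent, so r is a description with no test. The first was Trgv1, a variable segment of the T cell receptor gamma chain (r = 0.972), with signals of 427 and 546 in tumor 1, with 650 and 534 in tumor 2 and with 2234 and 2773 in tumor 3, against 2183 and 3354 in parental cells. It shared the split between tumors 1 and 2 on one side and tumor 3 and parental cells on the other, at changes of -2.45, -2.17 and -0.12. Next came Polm, a DNA polymerase of end joining (0.968), Adck1 (0.959), the G protein subunit gene Gnb4 (0.955), the meiotic mismatch gene Msh5 (0.951) and Pag1, an adaptor that binds the kinase Csk (0.951). S100a6 had rank 7 among all 8535 genes (0.947), and Gzmb, the cytotoxic protease granzyme B, rank 8 (0.946). Gzmb had signals of 50.9 and 48.6 in tumor 1, with 14.2 and 149 in tumor 2 and with 673 and 2021 in tumor 3, against 576 and 3808 in parental cells.

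**Figure D5:**
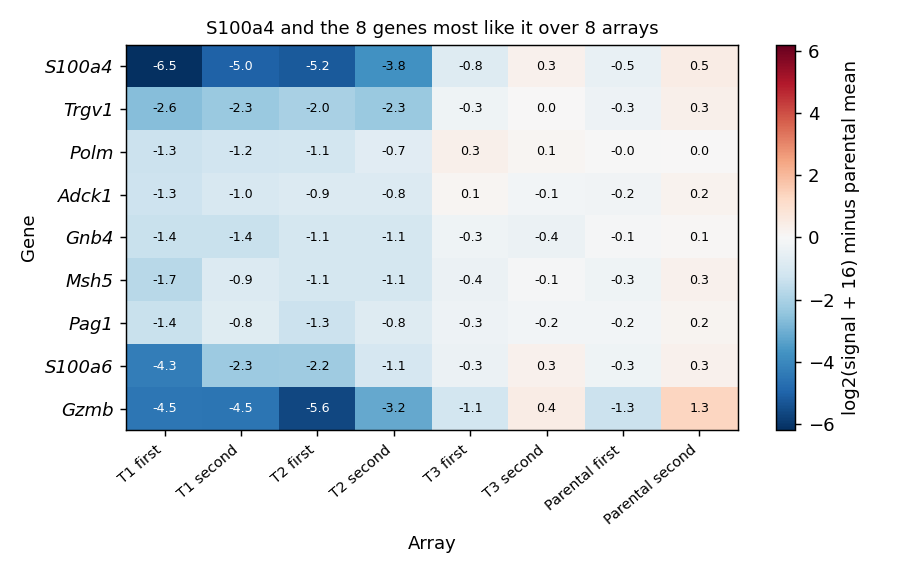
S100a4 and the 8 genes with the highest Pearson correlation to it, as log2(signal + 16) minus the mean of the parental arrays, on each array. The genes were chosen for this likeness. All 9 are low on the 4 arrays of tumors 1 and 2, and S100a4 and Gzmb have the widest range.

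The other members were like different genes. The 3 most like S100a6 were Pcf11 (0.993), Otud5 (0.971) and Epb41l5 (0.961), whose own changes were small, at -0.26, -0.19 and -0.57 in tumor 1. Those most like S100a11 were the fungal receptor gene Clec7a (0.991), Cdc26 (0.987) and the actin-sequestering gene Tmsb4x (0.983). Clec7a had changes of 1.60 in tumor 1 and 1.13 in tumor 2. S100a10 was most like Jade1 (0.961), Eif3f (0.934) and Srxn1 (0.93), S100a1 most like Omp (0.984), Bdnf (0.959) and Rexo2 (0.957), and S100a13 most like Qrich1 (0.973), Serpina10 (0.973) and Rab22a (0.972).

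The binding partners of the S100 proteins were taken as a list of 21 genes, of which 10 were measured. By limma 1 of these rose in tumors against parental cells and none fell, where 0.773% of all genes passed in either direction. An unadjusted p under 0.05 was found for 4 of the 10, beside 16.4% of all genes. The median change was 0.15 beside 0.02 over all genes. The gene that rose was Anxa1, the partner of S100a11 (4.91 ± 0.71 SE, adjusted p = 0.0419), with 1749 and 6415 in tumor 1, with 552 and 1404 in tumor 2 and with 1528 and 2504 in tumor 3, against 14.1 and 105 in parental cells. Both S100a11 and Anxa1 were thus above the parental array of their number in each tumor, and the change of Anxa1 was far larger. The Anxa1 call was lost without tumor 1, tumor 3 or either parental array (limma adjusted p of 0.0735, 0.0813, 0.153 and 0.125).

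Anxa2, the partner of S100a10, did not follow it. Its signal was 635 and 504 in tumor 1, with 155 and 210 in tumor 2 and with 662 and 670.3 in tumor 3, against 303 and 204 in parental cells, so tumors 1 and 3 lay above both parental arrays and tumor 2 did not. The 3 tumors differed by limma's F test (adjusted p = 0.0233), with changes of 1.13 (adjusted p = 0.0512), -0.43 (0.511) and 1.36 (0.032) in tumors 1, 2 and 3. With the array number as a block tumor 1 passed too (adjusted p = 0.0209). The tumor 3 call was lost without the second parental array (limma adjusted p = 0.168) or either tumor 3 array (0.176 and 0.206), and the F test without any 1 array of tumors 2 and 3 (0.0643 to 0.145). Both were lost with a pseudocount of 1 (limma adjusted p of 0.0624 and 0.0611), and the tumor 3 call also with no filter (0.0521) and with the mean of the gene's probe sets, where the change was 0.83 (0.0968). S100a10 had its lower signals in tumors 1 and 2, and Anxa2 its lower signals in tumor 2 and parental cells.

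The remaining partners did not pass in the mean over the tumors. Anxa6, a membrane-binding annexin, had a change of 0.83 ± 0.18 (SE, limma adjusted p = 0.104) and was higher in tumor 1 (1.02, adjusted p = 0.0299), a call lost without any 1 of the 8 arrays (0.0574 to 0.149) and gained in tumor 3 with the array number as a block (0.0373). Myh9, the non-muscle myosin heavy chain that S100a4 binds, had changes of 0.15, -0.14 and 0.18 in tumors 1, 2 and 3 (limma adjusted p of 0.857, 0.929 and 0.866), with none of the split seen in S100a4. Cacybp, the calcyclin-binding protein gene, was at 0.11, -0.16 and 0.00 (limma adjusted p of 0.896, 0.911 and 0.999), and the calcium pump gene Atp2a2, whose protein S100a1 binds, at 0.14, -0.13 and 0.07 (0.708, 0.836 and 0.902). Htr1b, a serotonin receptor gene whose protein binds S100a10, had a change of 0.63 (limma adjusted p = 0.151) and passed in tumor 3 with the block (0.0313). A p that misses the threshold does not show that these genes were equal in tumors and parental cells.

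Of 28 other EF-hand calcium sensor genes, 19 were measured and by limma 0 passed in tumors against parental cells, with 4 at an unadjusted p under 0.05, beside 16.4% of all genes, and a median of 0.08. Rcn2, a calcium-binding protein of the secretory pathway, had changes of 0.60, 1.49 and 2.70 in tumors 1, 2 and 3 and was higher in tumors 2 and 3 (limma adjusted p of 0.0263 and 0.000865) and different among the tumors (F test, adjusted p = 0.0135). Its signal was 228 and 177 in tumor 1, with 390.1 and 387 in tumor 2 and with 938 and 898 in tumor 3, against 161 and 101 in parental cells. Tumor 3, whose S100a4 overlapped that of parental cells, thus had the highest Rcn2. The F test was lost without either tumor 3 array (limma adjusted p of 0.114 and 0.107), and the tumor 2 call without the second parental array, either tumor 2 array or either tumor 3 array (0.0686 to 0.162), and with a pseudocount of 1 (0.0557). Lcp1, the actin-bundling plastin of white blood cells, was higher in tumor 1 (1.65, limma adjusted p = 0.0078), and Tesc, a calcineurin-like gene, was higher there too (1.40, adjusted p = 0.0209) and differed among the tumors (adjusted p = 0.0427). Lcp1 lost its call without the first parental array (limma adjusted p = 0.0535), Tesc its tumor 1 call without the second parental array or any 1 array of tumors 1 and 3 (0.0521 to 0.088), and its F test without any 1 tumor array (0.0935 to 0.199). With a pseudocount of 1 the tumor 1 change of Tesc was 2.94 and no longer passed (limma adjusted p = 0.0807), and its F test was lost there (0.179), with a pseudocount of 64 (0.107), with no filter (0.073) and with quantile normalization (0.0522). With the block, Lcp1 passed in tumors 2 and 3 as well (limma adjusted p of 0.0181 and 0.0309) and Tesc in tumor 3 (0.0462). Cib1, an integrin-binding calcium sensor gene, had a change of 0.68 (limma adjusted p = 0.173) and passed in tumors 1 and 2 with the block (0.0104 and 0.0497).

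Of 11 further genes, the rest of the S100 family on the list and the S100-binding S100pbp, 6 were measured and by limma 0 passed, with 2 at an unadjusted p under 0.05, beside 16.4% of all genes, and a median of 0.25. The largest change was that of S100a9 (1.96, adjusted p = 0.194), followed by S100a8 (1.19, 0.299) and S100b, known from glia (0.72, 0.355). On one of its probe sets S100b was at 1.42 and 7.56 in tumor 1, with 24.1 and 22.3 in tumor 2 and with 20.8 and 29.3 in tumor 3, against 0.268 and 6.89 in parental cells, and it passed in tumors 2 and 3 with the block (limma adjusted p of 0.0211 and 0.0129). Its other set was above the 40th percentile on 1 array. S100a14 and S100g were never above the 40th percentile. Of 8 genes of plasminogen activation, the process that the S100a10 and annexin A2 complex promotes at the cell surface, 2 were measured. By limma 0 of the 2 passed, with 1 at an unadjusted p under 0.05, beside 16.4% of all genes. That was Plaur, the urokinase receptor gene, with changes of 2.03, 1.44 and 1.02 in tumors 1, 2 and 3 (limma adjusted p = 0.101 over the tumors). These rest on the second arrays: its signal was 21.2, 29.9 and 28.9 on the first arrays of tumors 1, 2 and 3, against 20.1 in parental cells, and on the second 424 in tumor 1 and 142 in tumor 2, against 11.4. Within the first arrays its changes were 0.04, 0.35 and 0.31.

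Among 20 mesenchymal and invasion genes, listed because S100a4 is known from migrating and mesenchymal cells, 10 were measured. By limma 1 of these rose and none fell, where 0.773% of all genes passed in either direction, and their median was 0.13. Lgals3, the galectin-3 gene, rose by 4.18 ± 0.43 (SE, adjusted p = 0.0138). It was at 1782 and 2401 in tumor 1, with 1593 and 2311 in tumor 2 and with 2313 and 3179 in tumor 3, against 56.5 and 192 in parental cells, so all tumor arrays lay above both parental arrays and tumor 1 overlapped tumors 2 and 3, which did not overlap each other (highest in tumor 2 2311, lowest in tumor 3 2313). Mmp9, a secreted gelatinase gene, was higher in tumor 3 (2.25, limma adjusted p = 0.0353), where S100a4 overlapped parental cells, with changes of 0.15 and 0.61 in tumors 1 and 2. The difference of Mmp9 among the tumors did not pass the F test (limma adjusted p = 0.101) and did with the block (0.0146). Its tumor 3 call was lost without either array of tumor 3 or of parental cells (limma adjusted p 0.144 to 0.243), where no filter was set (0.0693) and with a pseudocount of 1 (0.128). Cd44, a hyaluronan receptor gene, had changes of -0.94, -0.38 and 0.13 (limma adjusted p of 0.225, 0.763 and 0.917, and 0.0308 in tumor 1 with the block), and Vim, the intermediate filament of mesenchymal and white blood cells, 0.30, -0.07 and 0.40 (0.47, 0.935 and 0.389).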

How the data were processed

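Tumors 1, 2 and 3 and the parental cells were each measured on 2 arrays, which gave 8 arrays of 22690 probe sets. The deposited values are linear signal intensity, made by the authors with MAS5, per the submitters' processing notes. They had been scaled to a 2% trimmed mean of 150.1 on every array. Of the probe sets, 20380 name 1 gene, 691 several and 1555 none, and 64 are controls. For 20351 of them the symbol was updated through the gene ID.

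Signals were taken as log2(signal + 16), and a probe set was kept if it exceeded the 40th percentile of its array on at least 2 arrays. The probe set with the highest mean stood for a gene, which left 8535 genes (14893 probe sets when all were fitted). Tests used limma 3.58.1 in R 4.3.3 with Benjamini-Hochberg adjustment over all genes and a threshold of 0.05, and were tested on simulated data. The simulated arrays were independent of each other, and their tumors differed only by the changes put in. They therefore cannot show how the tests behave where arrays deviate together or tumors vary, as in these data. Tumors were compared with parental cells over 3 tumor means against 2 arrays, and each tumor over all 8 arrays, where the p-values measure only the spread between duplicate arrays. Arrays of the same number deviated together in all 6 pairs of sources (r = 0.4 to 0.595), so the array number was also fitted as a block. The members and the gene lists were chosen with earlier results of these data known. Named are all members, of each list every called gene and up to 4 with the largest change, and the genes most like each member. Myh9, Cacybp, Atp2a2, Chtop, Ilf2, Npr1, Rptn, S100a16, Vim, Pax5, Ebf1, Rag1, Ncr1 and Col3a1 were named after their values were seen. So were the single neutrophil, eosinophil, macrophage, T cell, NK and erythroid markers. Promoters are RefSeq's, from GRCm38.p6.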

Additional observations from a re-analysis of the deposited data

Results flagged for a closer look

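In 8 genes both arrays of one tumor lay above, and both arrays of another below, the 2 parental arrays. Only the members, their neighbours, the listed genes and the genes most like a member were searched. The share of all genes that do the same was not counted, so nothing is read from the number 8. For each of the 8 genes, the difference between the highest and the lowest tumor change, on the scale of log2(signal + 16), is given. S100a1 did not pass limma's F test among tumors, and nothing is read from that, since the rule that chose the members used these levels. For Polm, Omp and Rexo2, named for their likeness to a member, no test is given. Polm (1.745 to 39.2) and Omp (12.5 to 49.9) had low signals on all arrays. S100a1 was above parental cells in tumors 2 and 3 and below them in tumor 1, a difference of 1.20 on its _s_at probe set, and its other probe set had tumor 2 within the parental arrays. Among the genes most like S100a4 or S100a1 in profile, Polm was above in tumor 3 and below in tumors 1 and 2 (1.47), Omp above in tumors 2 and 3 and below in tumor 1 (0.87), and Rexo2 above in tumor 2 and below in tumor 1 (0.51). Among the listed genes, Plgrkt, a plasminogen receptor gene, was above in tumor 2 and below in tumors 1 and 3 (1.75). Rcn1 was above in tumor 1 and below in tumor 3 (1.40), Zeb2 above in tumor 2 and below in tumor 1 (1.12), and Atp2a2 above in tumor 1 and below in tumor 2 (0.26). In limma's F test among tumors none of these 4 listed genes passed, with adjusted p of 0.14 for Plgrkt, 0.0785 for Rcn1, 0.154 for Zeb2 and 0.768 for Atp2a2. With the array number as a block Plgrkt (0.0207), Rcn1 (0.0201) and Zeb2 (0.0263) passed and Atp2a2 (0.407) did not.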

How the results depend on the processing

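Of 296 recomputed member changes 10 moved by more than a spread. The spread was that between tumors for the mean change and that between duplicate arrays for each tumor. Many of the 296 could not move, so this count does not measure robustness. The filters and the block leave a member's change as it is. Leaving out 1 array always moves the change of a single tumor by no more than that spread. The S100a4 change over the 3 tumors (-3.51) lay between -5.14 and -2.38 when a tumor or parental array was left out, and its tumor 1 change was -6.68 with a pseudocount of 1 and -4.63 with 64. Signs turned for S100a1 over the tumors in 3 of 14 alternatives. They also turned in tumor 3 for S100a4 (2 of 12), S100a6 (2 of 11) and S100a13 (1 of 12), and in tumor 1 for S100a13 (3 of 12). Median centring moved the median of all genes by -0.11 and the S100a4 change over the 3 tumors to -3.62. It shifts all genes of an array alike, so a change relative to that median cannot move. With the replicate block the calls numbered 1288, 531 and 902 in tumors 1, 2 and 3 (314, 131 and 218 without) and 551 among tumors (138). Leaving out 1 array or tumor gave 13 to 73 genes for tumors against parental cells (66), with 17 and 13 without the first and second parental array, where the lone array is assumed to vary like the tumors. It gave 97 to 265 in tumor 1, 46 to 145 in tumor 2, 89 to 242 in tumor 3 and 37 to 99 among tumors. For second against first arrays it gave 0 to 768 by limma (1342), with 0 without tumor 2 (2193 at an unadjusted p under 0.05), 54 without tumor 1 and 529 without parental cells. A pseudocount of 1 gave 72 among tumors and 630 for second against first arrays, and one of 64 gave 33 for tumors against parental cells. No filter gave 26, 79 among tumors and 801 for second against first. Every probe set as a feature gave 104 and 2595, and no source term 53. The S100a4 difference between arrays lost its call in 2 of 13 alternatives (adjusted p up to 0.742, with no source term), S100a6 in 6 of 12 and S100a13 in 5 of 13, and S100a10 gained one without _x_at, _s_at and _a_at sets (0.68, adjusted p = 0.0283). Without 1 array or tumor the list medians were 0.11 to 0.44 for other S100 genes, 0.090 to 0.33 for partners, 0.38 to 0.81 for plasminogen activation, 0.037 to 0.15 for EF-hand genes, 0.12 to 0.27 for mesenchymal genes and -0.032 to 0.054 for neighbours. Other S100 genes had 0.84 with a pseudocount of 1 and 0.81 with the 60th percentile filter. Plasminogen activation had 0.061 with no filter and -0.26 without _x_at, _s_at and _a_at sets. EF-hand genes had 0.11 with quantile normalization and -0.032 with median centring, and mesenchymal genes 0.019 with median centring. Neighbours had -0.088 with the 60th percentile filter, -0.074 with median centring and 0.17 without _x_at, _s_at and _a_at sets. List medians under alternatives were added after seeing the data. The Anxa1 call over the tumors was lost in 8 of 14 alternatives (adjusted p 0.011 to 0.153) and that of Lgals3 in 1 of 14 (0.0556, no filter). S100a6 has no value without _a_at sets. A signal under the 40th percentile, such as that of S100a4 on the first array of tumor 1, limits how large the change of a gene can be said to be.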
